A study of Mus musculus with 7 samples.

Results

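Glucose use in alveolar macrophages, which patrol the air spaces of the lung, was examined through 37 genes of glucose and lactate transport, glycolysis, the pentose phosphate pathway and glycogen metabolism. The genes were taken by symbol from a list of names. All 37 were found among the 26143 genes with a symbol in the count table. RNA was sequenced in bulk from sorted alveolar macrophages of 4-month-old mice, in 3 libraries from Cish-/- mice (KO; labelled Cish KO on C57BL/6) and 4 libraries from wild-type (WT) C57BL/6 mice. The labels name no transgene, no treatment and no sex, and do not say how the Cish allele was made or whether each library came from a separate mouse. Cish, a STAT5 target gene, codes for a member of the SOCS family that dampens cytokine signals, and the comparison asks how its loss alters gene expression in these cells. Total counts ranged from 26676988 to 30870607 in KO and from 30511397 to 34347648 in WT.

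Glycolysis turns glucose into pyruvate and yields ATP without oxygen. Pyruvate is then either reduced to lactate and exported or burned in mitochondria. The pentose phosphate pathway branches off after the first phosphorylation of glucose and supplies NADPH, which phagocytes need for the oxidative burst and for antioxidant defence, and ribose for nucleotides. Alveolar macrophages live where free glucose is scarce and are known to depend on lipid oxidation more than on glycolysis, while macrophages activated by microbial products raise glycolysis through the transcription factor HIF-1. Fructose-1,6-bisphosphatase, encoded by Fbp1, runs one step of glycolysis backwards.

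The labels were first checked against the data. Cish itself stood at 12.9, 14.3 and 10.9 CPM (the read count scaled by library size and TMM factor) in KO 1 to KO 3, against 46.3, 29.6, 38.1 and 67.9 CPM in WT 1 to WT 4, without overlap. Its log2 fold change was -1.84 (SE 0.26), with an edgeR adjusted p of 0.0519. All 12 markers of alveolar macrophages were present in every library, and 7 of them had a positive and 5 a negative log2 fold change. Siglecf had 372 to 455 CPM in KO and 521 to 587 CPM in WT, and Mrc1, the mannose receptor, 595 to 654 CPM in KO and 478 to 549 CPM in WT, both without overlap and both called by DESeq2 (adjusted p 0.00323 and 0.0370). Fabp4, a fatty acid binding protein, had 196 to 528 CPM in KO and 99.8 to 249 CPM in WT, and the carbonic anhydrase Car4 979.7 to 2596 CPM in KO and 461 to 1364 CPM in WT, both with overlap. Of the other cell types, summed marker levels were 3.75 to 15.2 CPM in KO and 2.58 to 6.13 CPM in WT for T or NK cells, 6.21 to 29.9 and 5.16 to 17.1 CPM for B cells, 9.82 to 32.6 and 5.12 to 16.3 CPM for neutrophils, with Ly6g at 0 in all libraries, and 4.49 to 15.4 and 1.59 to 6.88 CPM for stroma or endothelium. Within these lists DESeq2 called 3 markers at higher levels in KO, and edgeR none. Klrb1c, of NK cells, had 2.94, 3.92 and 0.147 CPM in KO and 0.0636 to 0.344 CPM in WT. The endothelial genes Pecam1, with 1.62 to 4.29 CPM in KO and 0.445 to 1.47 CPM in WT, and Cdh5, with 0.583 to 0.924 CPM in KO and 0.0318 to 0.188 CPM in WT, did not overlap. Markers of interstitial or monocyte-derived macrophages summed to 12.6 to 29.0 CPM in KO and 10.1 to 23.3 CPM in WT. Lung epithelium summed to 124 to 160 CPM in KO and 166 to 350 CPM in WT, most of it Epcam in WT. Of its 7 tested markers only Epcam had a negative log2 fold change, and the other 6 had a positive one. Epcam had 9.24 to 92.6 CPM in KO and 135 to 302 CPM in WT. The erythroid list summed to 285 to 856 CPM in KO and 13.6 to 348 CPM in WT. Cycling-cell genes summed to 344 to 400 CPM in KO and 326 to 464 CPM in WT. The part of these differences in the results below was not tested. On bulk RNA, fewer cells of a type and less RNA per cell cannot be told apart.

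Promoter sequences are shown for 5 genes that the results turn on: Ldha, Pgk1 and Slc16a3, which carry the core of the HIF binding motif, Pygl, the member with the smallest p, and Fbp1, the member that varied most. Each is the 250 bases before the first RefSeq start listed for the gene (GRCm38.p6), 5′ to 3′ on the strand of the gene, with the core ACGTG or its reverse complement CACGT in capitals.
Ldha (chr7:46845554-46845803, plus strand): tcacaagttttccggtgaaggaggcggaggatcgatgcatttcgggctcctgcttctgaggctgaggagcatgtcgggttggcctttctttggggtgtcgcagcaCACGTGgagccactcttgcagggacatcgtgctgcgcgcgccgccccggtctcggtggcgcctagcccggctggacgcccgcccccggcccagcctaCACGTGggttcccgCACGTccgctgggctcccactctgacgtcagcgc
Pgk1 (chrX:106186850-106187099, plus strand): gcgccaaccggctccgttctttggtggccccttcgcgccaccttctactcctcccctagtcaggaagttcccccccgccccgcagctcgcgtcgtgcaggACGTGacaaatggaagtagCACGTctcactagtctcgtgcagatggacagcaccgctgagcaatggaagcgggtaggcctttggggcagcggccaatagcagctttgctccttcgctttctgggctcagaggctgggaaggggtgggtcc
Slc16a3 (chr11:120948817-120949066, plus strand): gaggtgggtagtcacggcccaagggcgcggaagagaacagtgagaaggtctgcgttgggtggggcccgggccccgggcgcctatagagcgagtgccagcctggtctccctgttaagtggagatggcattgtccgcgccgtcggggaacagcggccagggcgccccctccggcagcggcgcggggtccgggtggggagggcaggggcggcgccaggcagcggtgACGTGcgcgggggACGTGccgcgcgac
Pygl (chr12:70227684-70227933, minus strand): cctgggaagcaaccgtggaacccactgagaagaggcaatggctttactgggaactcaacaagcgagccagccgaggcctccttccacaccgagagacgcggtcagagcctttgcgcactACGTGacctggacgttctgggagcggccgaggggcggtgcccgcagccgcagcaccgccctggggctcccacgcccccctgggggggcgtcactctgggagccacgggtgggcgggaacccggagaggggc
Fbp1 (chr13:62888283-62888532, minus strand): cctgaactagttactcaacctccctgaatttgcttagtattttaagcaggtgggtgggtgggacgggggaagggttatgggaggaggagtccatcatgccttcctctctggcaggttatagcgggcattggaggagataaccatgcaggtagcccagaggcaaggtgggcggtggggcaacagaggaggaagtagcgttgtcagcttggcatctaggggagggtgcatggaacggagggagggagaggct

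In these 250 bases Ldha had 5 cores, Pgk1 and Slc16a3 had 2 each, Pygl had 1 and Fbp1 had 0. Ldha has 2 starts in the table, and the 250 bases before the other one (chr7:46846832-46847081, plus strand) had 0 cores. Where the cores lie back to back as CACGTG, a palindrome that is also the E-box bound by MYC and related factors, both strands were counted. Over the 300-base promoter windows of RefSeq, which run from 250 bases before to 50 bases after the start, 18 of the 36 members with an entry had a core in at least 1 promoter (50%), against 21.8% of all 27025 genes in the table. Slc2a3 had no entry in the table. A match describes these letters and is not evidence of binding.

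Levels differed far more between members than between genotypes. Per kilobase of coding-transcript exon, Taldo1, the transaldolase of the pentose phosphate pathway, ranked first in both genotypes, with 712 CPM per kilobase in KO and 813 in WT. The aldolase Aldoa followed with 543 CPM per kilobase in KO and 558 in WT, then Ldha, the lactate dehydrogenase subunit that favours lactate formation, with 401 and 400, the pyruvate kinase Pkm with 272 and 301, and Pgd, the second NADPH-producing dehydrogenase of the pentose phosphate pathway, with 177 and 190. These 5 ranks were the same in KO and WT. At the entry to the pathway levels were low: the glucose transporters Slc2a1 and Slc2a6 reached 6.58 and 5.44 CPM per kilobase in KO and 6.29 and 6.86 in WT, and the hexokinases Hk1, Hk2 and Hk3 reached 3.64, 4.90 and 14.4 CPM per kilobase in KO and 3.73, 4.02 and 12.4 in WT. The neuronal glucose transporter Slc2a3 had 6 to 13 reads per KO library and 8 to 21 per WT library, the muscle phosphofructokinase Pfkm 22 to 43 and 23 to 34, and the heart-type lactate dehydrogenase Ldhb 8 to 13 and 0 to 16.

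**Figure D1:**
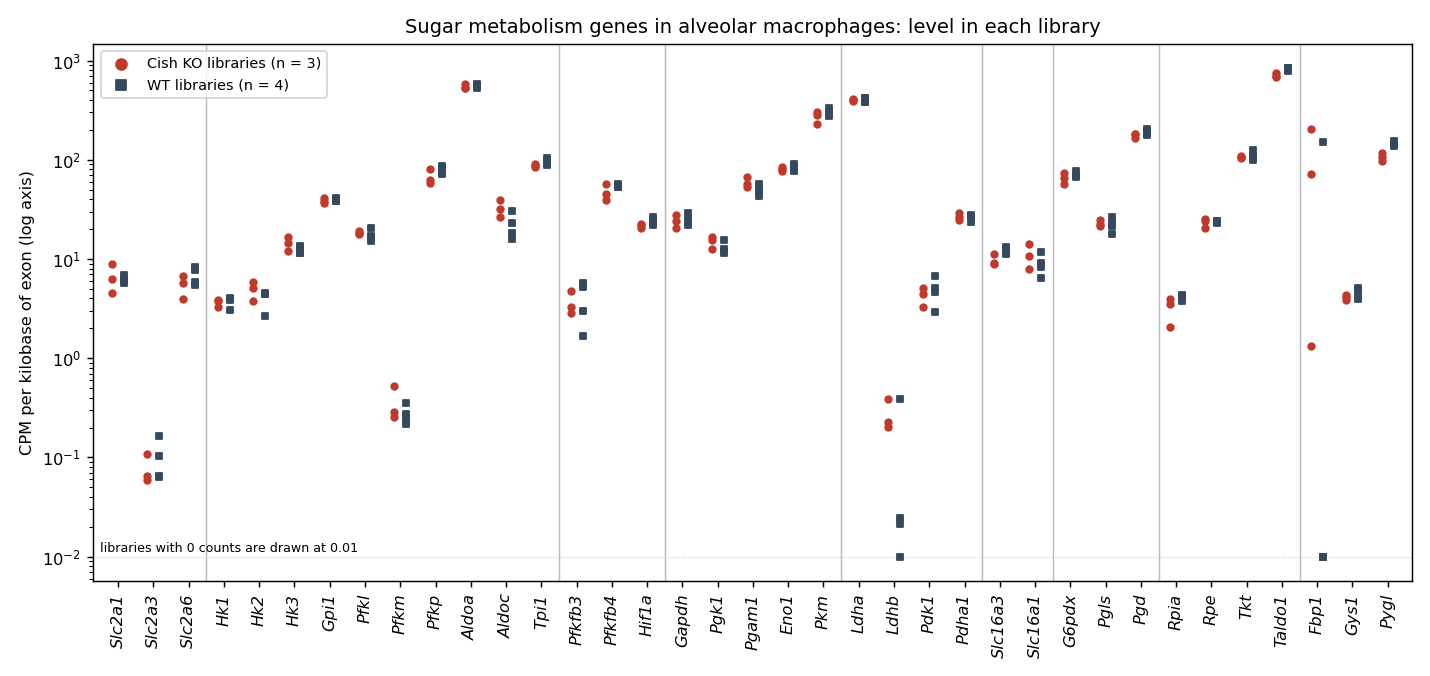
Level of each of the 37 members in every library, in CPM per kilobase of coding-transcript exon on a log axis, with the 3 KO libraries as circles left of the 4 WT libraries as squares. Vertical lines part the roles, from glucose transport on the left to gluconeogenesis and glycogen on the right. Taldo1, Aldoa, Ldha and Pkm stand highest and Slc2a3, Pfkm and Ldhb lowest in both genotypes, and Fbp1 spans the widest range; libraries with 0 counts are drawn at 0.01.

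In 5 isoenzyme families 1 gene led, and the same one in KO and WT. The shares are taken over the listed members of a family only. Hk3 supplied 62.6% ± 1.89 (SD, n = 3) of hexokinase reads per kilobase in KO and 61.5% ± 3.99 (SD, n = 4) in WT, with Hk2, the form raised in proliferating and activated cells, at 21.3% ± 2.82 in KO and 19.97% ± 4.51 in WT. The platelet-type Pfkp supplied 77.8% ± 2.76 of phosphofructokinase reads per kilobase in KO and 81.6% ± 2.65 in WT, and the liver-type Pfkl 21.8% ± 2.87 in KO and 18.1% ± 2.65 in WT. Aldoa supplied 94.4% ± 0.769 of aldolase in KO and 96.2% ± 0.952 in WT. Ldha supplied 99.9% ± 0.0269 of lactate dehydrogenase in KO and 99.97% ± 0.0443 in WT. Of Pfkfb3 and Pfkfb4, which set fructose 2,6-bisphosphate, the allosteric activator of phosphofructokinase, Pfkfb4 supplied 92.7% ± 2.39 in KO and 93.3% ± 3.26 in WT. Their paralogs Pfkfb1 and Pfkfb2, outside the list, had 1.11 and 0.824 CPM per kilobase in KO and 0.867 and 0.742 in WT. Between the listed transporters the leading gene by mean share differed. Of Slc2a1, Slc2a3 and Slc2a6 together, Slc2a1 held 54.1% ± 2.54 in KO and 47.9% ± 4.45 in WT, and Slc2a6 45.3% ± 2.31 in KO and 51.4% ± 4.30 in WT. By library, Slc2a1 also led Slc2a6 in WT 1 (50.8% against 48.7%) and WT 2 (51.8% against 47.3%). Slc2a6 led only in WT 3 and WT 4. The lowest KO share of Slc2a1, 51.9%, lay just above the highest WT share, 51.8%, so the genotypes did not overlap. Slc2a8, an intracellular glucose transporter outside the list, stood higher than either, at 14.9 CPM per kilobase in KO and 16.9 in WT. Slc16a3, the exporter MCT4 of glycolytic cells, held 45.4%, 53.4% and 44.0% in KO 1 to KO 3, against 67.1%, 57.1%, 57.5% and 51.1% in WT 1 to WT 4, and Slc16a1 (MCT1) held the rest. KO 2 lay above WT 4, so these shares overlapped. No test was made of the shares.

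Levels of 4 glycolytic genes rest most on reads that near-identical copies also match. Of the distinct 50-base windows in coding transcripts, 68% in Pgk1, 58.4% in Gapdh, 49.5% in Eno1 and 41.5% in Pgam1 also occur in GENCODE transcripts of another gene, mostly processed pseudogenes. The next largest shares were 24.5% in Gpi1, 23.7% in Pkm and 21% in Ldhb, whose levels are open to the same doubt. Gapdh, the glyceraldehyde 3-phosphate dehydrogenase often used as a reference gene, had only 41.6, 30.6 and 35.9 CPM in KO and 35.4, 37.9, 32.9 and 43.3 CPM in WT. Of 11 genes in the count table that share its windows, 6 pseudogenes sharing at least 5.35% of them were summed. Vmn2r60, which shares 15.2%, was not. The 6 pseudogenes held 192 CPM in KO and 190 in WT, so Gapdh itself kept 13.1% to 18.6% of the sum with them. With these 6 copies added, the Gapdh level was 228 CPM ± 16.1 (SD, n = 3) in KO and 227 CPM ± 10.95 (SD, n = 4) in WT (log2 fold change 0.01, SE 0.08). Eno1, the enolase, had 206 CPM ± 9.73 in KO and 213 CPM ± 16.4 in WT, and its retrogene copy Eno1b had 496 CPM in KO and 495 CPM in WT. Their sum was 702 CPM ± 8.52 (SD, n = 3) in KO and 708 CPM ± 60.8 (SD, n = 4) in WT. The per-kilobase levels of Gapdh, Pgk1, Eno1 and Pgam1 are therefore uncertain, and so are their differences.

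The comparison of KO with WT asked whether loss of Cish shifted these genes. By edgeR's quasi-likelihood test over 12759 genes, 0 of the 36 tested members were called at an adjusted p below 0.05, where 0.0862% of all tested genes were, and DESeq2 called 1 member, Pygl, where it called 5.71% of all genes, 2.68% higher and 3.02% lower in KO. Ldhb fell below the count filter. At an unadjusted edgeR p below 0.05 stood 5 of 36 members, or 13.9%, against 18% of all genes: 2 with higher levels in KO (background 9.15%) and 3 with lower levels (background 8.85%). The CPM of KO and WT did not overlap for 3 of 36 members, all lower in KO, against 16% of all genes in either direction 8.72% with KO below and 7.23% with KO above. The median log2 fold change of the tested members was -0.04, beside 0.00 over all genes, with 13 higher and 23 lower in KO. The median size of the log2 fold change, regardless of sign, was 0.15 for the members and 0.16 for all genes. The members' shares of genes with small p or without overlap lay at or below the background.

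**Figure D2:**
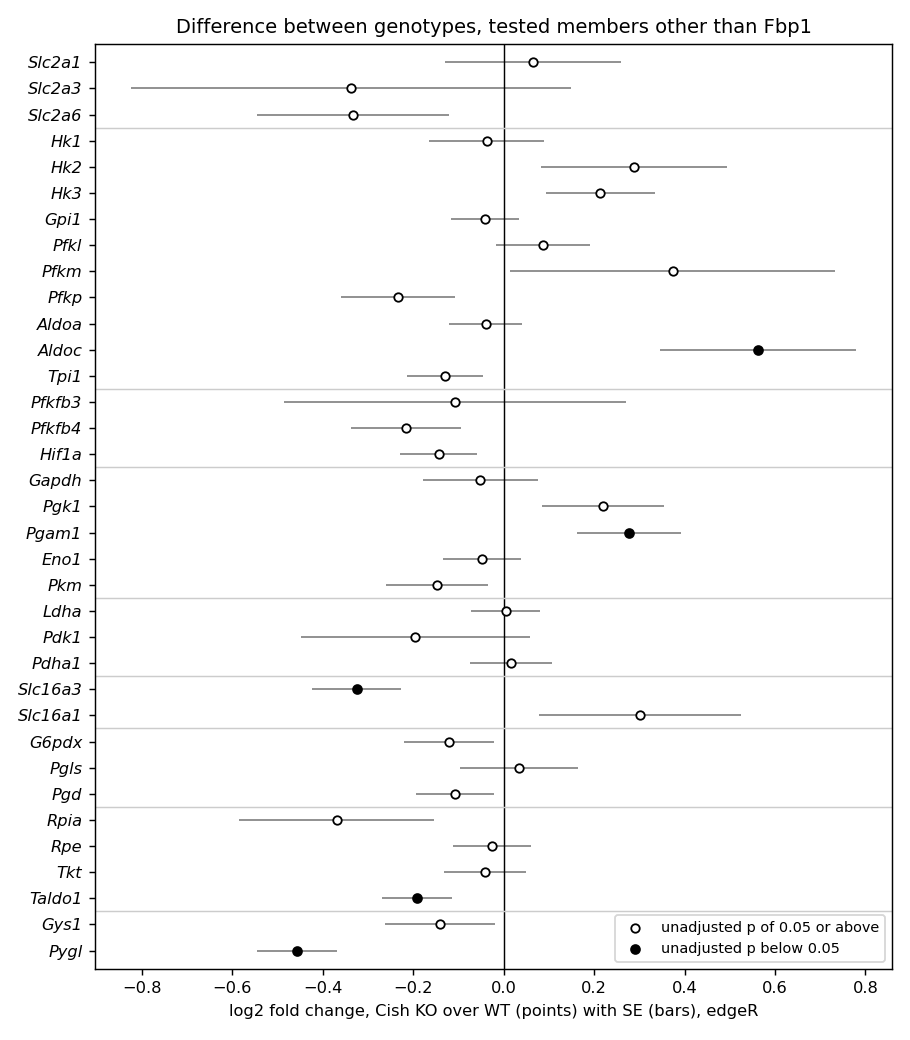
Log2 fold change of KO over WT with its SE for the tested members other than Fbp1, grouped by role from glucose transport at the top to glycogen at the bottom. Filled points mark an unadjusted edgeR p below 0.05, which Pygl, Slc16a3 and Taldo1 have below 0 and Aldoc and Pgam1 above 0; no member passed after adjustment.

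Among the glycogen genes, Pygl, the liver-form phosphorylase that releases glucose units from glycogen, had 328, 391 and 360 CPM in KO 1 to KO 3, against 517, 507, 491 and 461 CPM in WT 1 to WT 4. Every KO library lay below every WT library. The log2 fold change was -0.46 (SE 0.09), a mean level 1.37-fold lower in KO. DESeq2 called it, at an adjusted p of 0.000402, and edgeR, at 0.0898, did not. Without WT 4 edgeR called it too, with an adjusted p of 0.0457; over all alternatives its adjusted p ranged from 0.000402 to 0.368, and its log2 fold change from -0.53 to -0.39. Glycogen synthase, Gys1, had 15.1 CPM ± 0.865 (SD, n = 3) in KO and 16.6 CPM ± 2.02 (SD, n = 4) in WT, with overlap.

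Of the lactate transporters, Slc16a3 had 39.8, 40.6 and 49.6 CPM in KO 1 to KO 3, against 58.6, 53.4, 50.5 and 54.6 CPM in WT 1 to WT 4. The genotypes did not overlap, though KO 3 came within 1 CPM of WT 3. Its log2 fold change of -0.33 (SE 0.10) reached an edgeR adjusted p of 0.150 and a DESeq2 one of 0.0735. Slc16a1 had 47.7, 35.2 and 62.8 CPM in KO, against 28.6, 39.95, 37.1 and 52.0 CPM in WT, with overlap and a log2 fold change of 0.30 (SE 0.22). Summed, both transporters stood at 91.9 CPM ± 18.8 (SD, n = 3) in KO and 93.7 CPM ± 9.06 (SD, n = 4) in WT.

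None of the 3 glucose transporters passed the test. Slc2a1, the basal transporter GLUT1, had 20.4, 14.9 and 29.0 CPM in KO, against 18.8, 20.7, 22.5 and 20.1 CPM in WT, so the lowest and the highest library were both KO. Slc2a6, a transporter of lysosomal membranes in macrophages, had 12.1, 8.43 and 14.3 CPM in KO and 11.8, 12.4, 16.6 and 17.8 CPM in WT (log2 fold change -0.33, SE 0.21, edgeR adjusted p 0.440).

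In upper glycolysis, from hexokinase to triose phosphate, 5 members had a positive and 5 a negative log2 fold change, and the median was 0.03. Aldoc, the brain-type aldolase, had 116, 78.9 and 96.0 CPM in KO 1 to KO 3, against 69.4, 47.5, 54.3 and 91.3 CPM in WT 1 to WT 4. WT 4 lay above KO 2, so the groups overlapped, and the log2 fold change of 0.56 (SE 0.22) reached an edgeR adjusted p of 0.221 and a DESeq2 one of 0.0981. Hk3 had 55.4, 40.2 and 49.2 CPM in KO and 44.6, 38.3, 38.3 and 45.2 CPM in WT (0.21, SE 0.12), and Hk2 had 28.9, 21.1 and 32.7 CPM in KO and 15.02, 24.9, 25.04 and 25.3 CPM in WT (0.29, SE 0.21). Pfkp, which with its partners commits fructose 6-phosphate to glycolysis, had 248, 270 and 345 CPM in KO, against 321, 357, 369 and 306 CPM in WT (-0.23, SE 0.13). The triose phosphate isomerase Tpi1 had 154 CPM ± 6.47 (SD, n = 3) in KO and 168 CPM ± 12.6 (SD, n = 4) in WT. Aldoa, the member with the most reads, had 1393 CPM ± 77.5 in KO and 1432 CPM ± 66.5 in WT, and the isomerase Gpi1 had 111 CPM ± 6.25 in KO and 114 CPM ± 3.64 in WT.

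In lower glycolysis, Pgam1, the phosphoglycerate mutase, had 119, 101 and 95.2 CPM in KO 1 to KO 3, against 89.2, 76.3, 81.3 and 100.1 CPM in WT 1 to WT 4. WT 4 again lay inside the KO range, and the log2 fold change was 0.28 (SE 0.12, edgeR adjusted p 0.250). Pgk1, the first enzyme of the pathway to make ATP, had 30.5, 23.2 and 28.4 CPM in KO, against 23.1, 20.8, 21.8 and 28.3 CPM in WT (0.22, SE 0.14). Pkm, which makes pyruvate, had 731, 785 and 601 CPM in KO, against 861, 746, 808 and 712 CPM in WT (-0.15, SE 0.11), with KO 3 the lowest library and WT 1 the highest. Ldha had 763, 740 and 776 CPM in KO and 792, 723, 727 and 788 CPM in WT, a log2 fold change of 0.00 (SE 0.08). At the gate into mitochondria, Pdha1, a subunit of pyruvate dehydrogenase, had 76.1 CPM ± 5.59 (SD, n = 3) in KO and 75.2 CPM ± 5.89 (SD, n = 4) in WT, and its inhibitory kinase Pdk1 had 22.1 CPM ± 4.76 in KO and 25.3 CPM ± 8.04 in WT. Summed over the 15 glycolytic enzymes, levels were 3286 CPM ± 120 (SD, n = 3) in KO and 3408 CPM ± 111 (SD, n = 4) in WT, ranging from 3192 to 3421 and from 3242 to 3479.

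**Figure D3:**
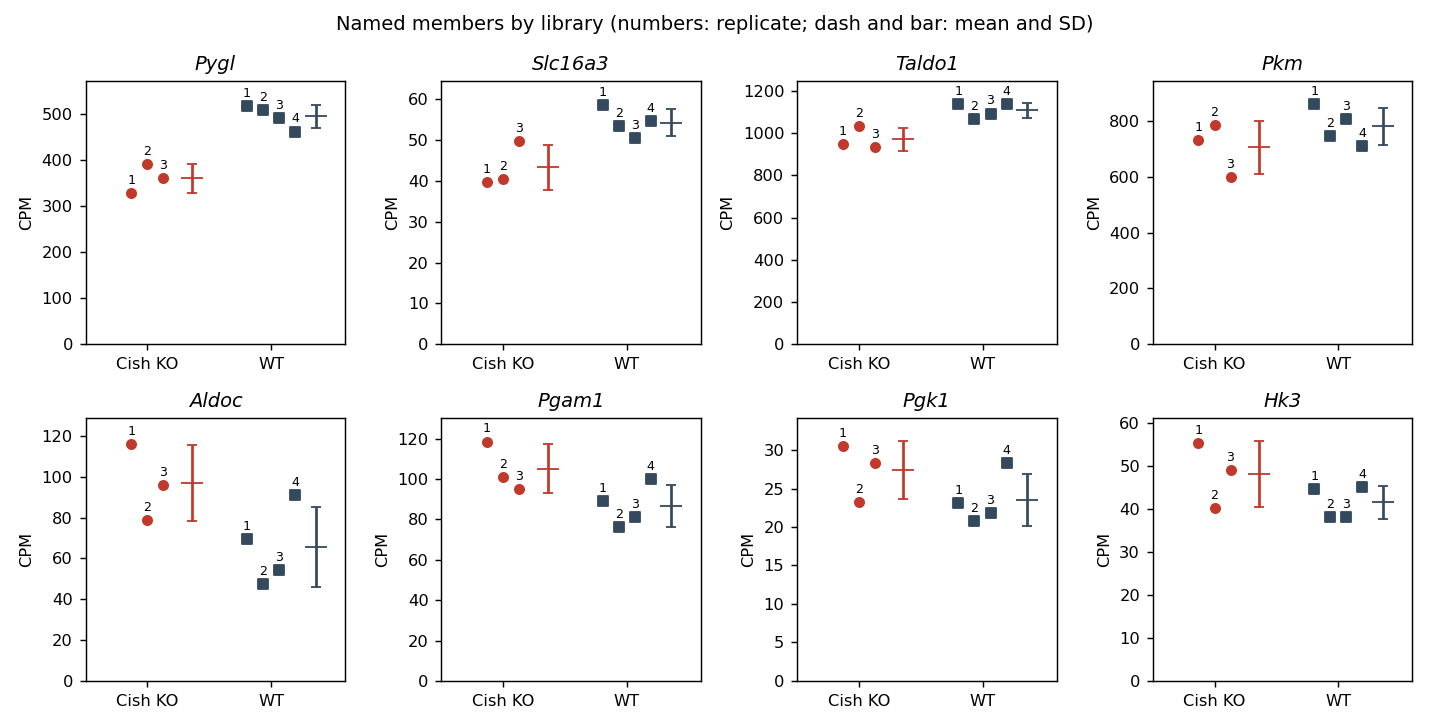
CPM of 8 named members in each library, KO left and WT right in each panel, with replicate numbers above the points and the mean and SD beside them. Pygl, Slc16a3 and Taldo1 separate the genotypes, while for Aldoc, Pgam1, Pgk1 and Hk3 the WT 4 library lies within the KO range.

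The 3 regulators of glycolysis had negative log2 fold changes, and none passed the test. Pfkfb4 lies on the same chromosome as Cish, 1.7 Mb away, and so does Pkm, 47.6 Mb away. Whether this nearness had a part in the values was not tested. Pfkfb4 had 136, 157 and 198 CPM in KO, against 194, 185, 184 and 197 CPM in WT (log2 fold change -0.22, SE 0.12, edgeR adjusted p 0.383), with KO 3 above every WT library. Pfkfb3, the inducible form, varied most among libraries in this group, with 18.1, 26.2 and 15.7 CPM in KO and 9.18, 31.4, 29.0 and 16.6 CPM in WT. Hif1a, the oxygen-regulated subunit of HIF-1, had 112, 119.5 and 123 CPM in KO, against 126, 144, 120.1 and 132 CPM in WT (-0.14, SE 0.09, edgeR adjusted p 0.409), with KO 3 above WT 3. Members with the HIF core in a promoter had a median log2 fold change of -0.02, with 9 higher and 9 lower, and the 17 tested members without it -0.11, with 4 higher and 13 lower; this split is a description and was not tested.

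In the pentose phosphate pathway 6 of 7 enzymes had a negative log2 fold change (median -0.11), and 0 of the 7 were called by edgeR or DESeq2; at an unadjusted edgeR p below 0.05 stood 1, Taldo1. Over all genes 18% had such a p, and 50.5% a log2 fold change above 0. Taldo1 had 948, 1033 and 933 CPM in KO 1 to KO 3, against 1138, 1067, 1093 and 1136 CPM in WT 1 to WT 4, without overlap. Its log2 fold change was -0.19 (SE 0.08), and the adjusted p was 0.241 in edgeR and 0.147 in DESeq2. In the oxidative branch, which makes the NADPH, none of 3 enzymes passed the test: G6pdx, its rate-limiting dehydrogenase, had 173 CPM ± 20.7 (SD, n = 3) in KO and 188 CPM ± 12.2 (SD, n = 4) in WT, Pgd had 405, 403 and 367 CPM in KO and 458, 391, 432 and 406 CPM in WT, and the lactonase Pgls had 26.8 CPM ± 1.78 in KO and 26.2 CPM ± 4.25 in WT. Of the other non-oxidative enzymes, the transketolase Tkt had 343 CPM ± 8.36 in KO and 353 CPM ± 33.9 in WT, and the epimerase Rpe 63.5 CPM ± 6.73 in KO and 64.6 CPM ± 1.21 in WT. The ribose isomerase Rpia had 3.80, 7.30 and 6.36 CPM in KO, against 7.58, 6.85, 7.70 and 7.89 CPM in WT, and KO 2 lay above WT 2. Summed over the 7 enzymes, levels were 1979, 2061 and 1883 CPM in KO and 2308, 2077, 2129 and 2165 CPM in WT. All 3 KO libraries lay below the lowest WT library, and KO 2 came close to WT 2. Taldo1 alone supplied a mean of 971 of 1975 CPM of this sum in KO and 1109 of 2170 CPM in WT. Taken singly, every enzyme other than Taldo1 overlapped between the genotypes.

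Summed over all 37 members, levels were 7093, 6959 and 7124 CPM in KO, against 7666, 7166, 7378 and 7685 CPM in WT, and the mean differed by -5.55% in KO, without overlap. Leaving out Fbp1 the difference was -6.70%. Without Pygl as well it was -5.24%, still without overlap, with KO 1 at 6658 CPM and WT 2 at 6659 CPM. Without Taldo1 too it was -3.88%, and the libraries overlapped. Leaving out Fbp1, Pygl, Taldo1 and Pkm it was -2.97%, again with overlap. Levels were then 4979, 4747 and 4925 CPM in KO and 5150, 4846, 4986 and 5151 CPM in WT. Pygl, Taldo1 and Pkm were each lower in KO by a larger share than the sum, so leaving them out had to shrink the difference. Fbp1 had a higher mean in KO (138 CPM, against 56.0 CPM in WT), so leaving it out had to widen the difference. No test was made of these sums.

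Fbp1 had the widest range of counts relative to its level. Its raw counts were 3241, 51 and 8307 in KO 1 to KO 3, against 0, 0, 0 and 7157 in WT 1 to WT 4. In CPM these were 107, 1.98 and 305 in KO and 0, 0, 0 and 224 in WT. A count of 0 allows a level of up to 0.0839 to 0.0954 CPM in WT 1 to WT 3 (3 counts; counting error only). High and low libraries occurred in both genotypes, and the log2 fold change of 1.30 (SE 2.06) reached an edgeR adjusted p of 0.779. Its muscle paralog Fbp2 and the liver-type gluconeogenic genes Pck1 and G6pc had at most 0.0368 CPM in any library. The other gluconeogenic genes were expressed in every library: Pck2, the mitochondrial phosphoenolpyruvate carboxykinase, had 9.64 to 11.2 CPM in KO and 8.70 to 11.3 CPM in WT, the pyruvate carboxylase Pcx 2.33 to 3.70 CPM in KO and 2.97 to 4.78 CPM in WT, and the ubiquitous glucose 6-phosphatase G6pc3 41.0 to 45.4 CPM in KO and 39.2 to 49.9 CPM in WT.

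Genes with a pattern most like that of Fbp1 were ranked by the correlation of log2 CPM over the 7 libraries, a choice made after its values were seen. Of 12758 other tested genes, 167 had a Pearson correlation of at least 0.9 and 157 of at most -0.9, as a description of 7 libraries of which 3 are at 0. With predicted genes and Rik entries left out of the ranking, the ribonuclease Rnase2a came first. It had 20.0, 1.67 and 50.7 CPM in KO and 0.420, 0.313, 0.445 and 32.8 CPM in WT. Mmp12, the macrophage elastase, followed with 512, 79.1 and 1065 CPM in KO and 13.04, 15.7, 24.4 and 470 CPM in WT. Arg1, the arginase of alternatively activated macrophages, had 5.65, 1.40 and 16.0 CPM in KO and 0.168, 0.125, 0.350 and 18.1 CPM in WT. Arid1a, Stac2, Pdia3, AA467197 and Ceacam1 came next. Pdia3, a protein disulfide isomerase of the endoplasmic reticulum, had 1178, 1084 and 1231 CPM in KO and 1039, 1017, 1056 and 1216 CPM in WT, a far smaller range. The chemokine Ccl17 followed, with 111, 6.84 and 230 CPM in KO and 1.20, 0.313, 0.764 and 58.4 CPM in WT. In each of these, WT 4 stood with KO 1 and KO 3, and KO 2 lay between them and WT 1 to WT 3. The most abundant marker of alveolar macrophages, the chitinase-like Chil3, had 66854, 40503 and 72178 CPM in KO and 27941, 16623, 24028 and 50491 CPM in WT.

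**Figure D4:**
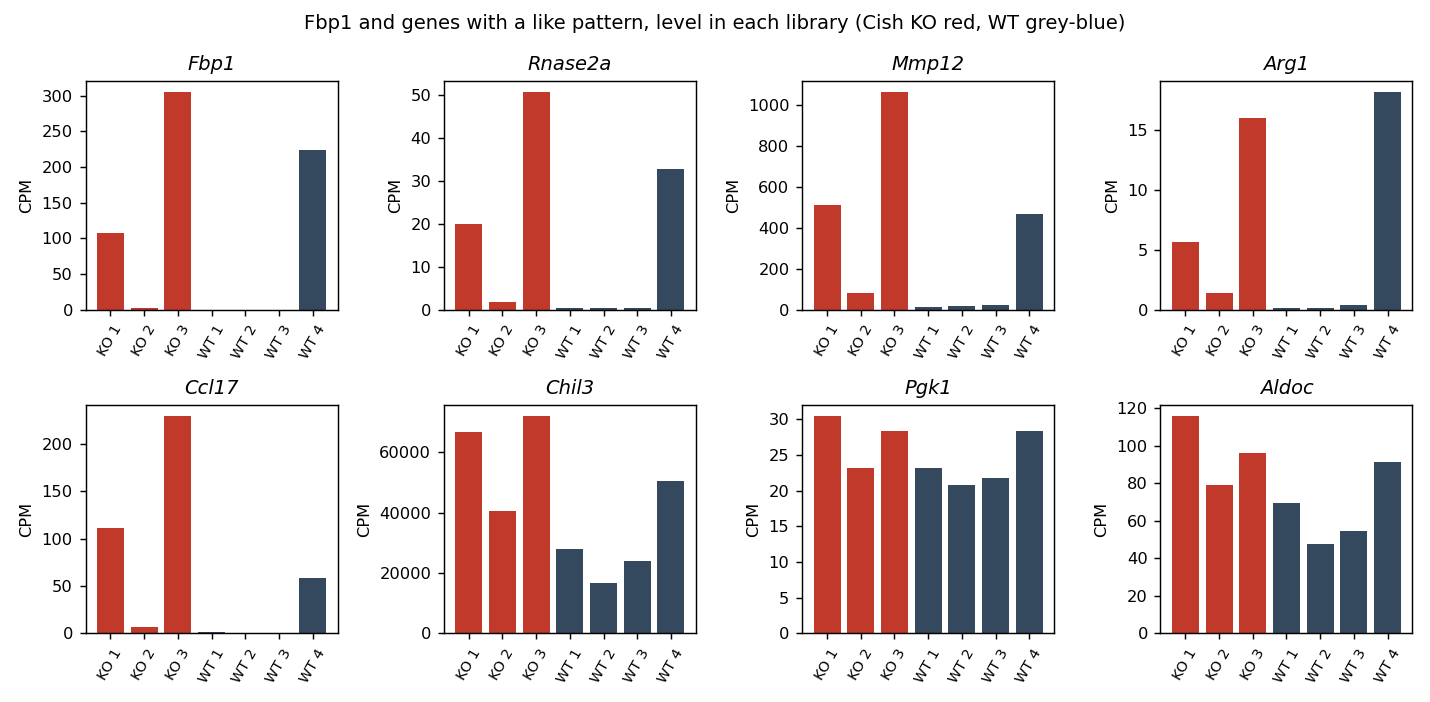
CPM of Fbp1, 4 of the 10 genes with the most similar pattern, Chil3 and the members Pgk1 and Aldoc, as bars from 0 for KO 1 to KO 3 on the left and WT 1 to WT 4 on the right of each panel. Predicted genes and Rik entries were left out of these 10. Fbp1, Rnase2a, Mmp12, Arg1 and Ccl17 are high in KO 1, KO 3 and WT 4 and low in WT 1 to WT 3, and Pgk1 and Aldoc are highest in KO 1, KO 3 and WT 4 with a far smaller range.

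For the members Pgk1, Aldoc and Slc16a1 the 3 highest libraries were KO 1, KO 3 and WT 4, the libraries with the most Fbp1 counts. The same 3 libraries were highest for Hk2 and Hk3, by a narrow margin for WT 4. Hk2 had 25.3 CPM in WT 4 and 25.04 CPM in WT 3, and Hk3 had 45.2 CPM in WT 4 and 44.6 CPM in WT 1. KO 2 came next for Pgk1 and Aldoc. For Slc16a1, a lactate transporter, KO 2 at 35.2 CPM lay below WT 2 at 39.95 and WT 3 at 37.1 CPM. The Pearson correlation of log2 CPM with Fbp1 was 0.94 for Pgk1, 0.89 for Aldoc and 0.85 for Slc16a1, and at the other end -0.83 for Pdk1, -0.78 for Pkm and -0.76 for Pygl, given as a description. Aldoc and Pgk1 had higher mean levels in KO, and without KO 1 their log2 fold changes were 0.41 and 0.13. Without WT 4 they were 0.77 and 0.32. Whether the difference in Fbp1-like expression between libraries had a part in the genotype values was not tested.

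Outside the 37 members, a wider list of 77 genes of sugar metabolism had 54 tested, of which edgeR called 0, 5 had an unadjusted p below 0.05 with a higher level in KO and 4 with a lower one, and the median log2 fold change was -0.01. Over all genes these unadjusted shares were 9.15% and 8.85%, so that both counts lay near the background. DESeq2 called 2 higher and 1 lower, against 5.71% of all genes in either direction. The 4 with the smallest p were Stbd1, a glycogen-binding protein that brings glycogen to lysosomes, Mpc1, a subunit of the mitochondrial pyruvate carrier, Ppp1r3d, a glycogen-targeting subunit of protein phosphatase 1, and Slc37a2, a sugar phosphate transporter. Mpc1 had 255, 212 and 161 CPM in KO, against 155, 122, 110 and 156 CPM in WT, without overlap (log2 fold change 0.62, SE 0.17, edgeR adjusted p 0.130, DESeq2 adjusted p 0.0154). Stbd1 had 20.4, 22.6 and 7.39 CPM in KO, against 6.29, 4.44, 5.44 and 8.67 CPM in WT (1.43, SE 0.36, edgeR adjusted p 0.110, DESeq2 adjusted p 0.00154), with KO 3 below WT 4. Ppp1r3d had 13.6, 16.5 and 24.8 CPM in KO, against 25.0, 32.9, 32.4 and 27.0 CPM in WT, without overlap (-0.68, SE 0.20, edgeR adjusted p 0.141, DESeq2 adjusted p 0.0200). Slc37a2 had 56.7, 45.2 and 10.7 CPM in KO and 11.8, 15.8, 18.5 and 12.5 CPM in WT, with KO 3 below every WT library.

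Regulators and targets of HIF and of sugar sensing numbered 31, of which 25 were tested and 0 were called by edgeR, with a median log2 fold change of 0.00. An unadjusted p below 0.05 was found for 4 with higher and 2 with lower levels in KO, and DESeq2 called 2 higher, Epas1 and Vegfa, and 1 lower, Bnip3. The shares over all genes were 9.15% and 8.85% by edgeR, and 2.68% and 3.02% by DESeq2. Epas1, which encodes HIF-2 alpha and is also strongly expressed in endothelium, had 22.2, 12.2 and 8.79 CPM in KO, against 4.70, 3.03, 2.10 and 5.63 CPM in WT. All KO libraries lay above all WT libraries, and the log2 fold change was 1.89 (SE 0.38); edgeR gave 0.0923 as its adjusted p and DESeq2 2.57e-05. The endothelial markers Pecam1 and Cdh5 were also above WT in every KO library, and their part in this result was not tested. Bnip3, a mitophagy receptor induced by hypoxia, had 19.0, 26.7 and 22.2 CPM in KO, against 32.1, 39.5, 32.4 and 27.1 CPM in WT, without overlap (-0.53, SE 0.15, edgeR adjusted p 0.133, DESeq2 adjusted p 0.0293). Vegfa, the vascular growth factor and HIF target, had 6.14, 4.97 and 7.24 CPM in KO, against 3.11, 3.60, 4.99 and 3.25 CPM in WT, where WT 3 lay above KO 2 (0.71, SE 0.22, edgeR adjusted p 0.154, DESeq2 adjusted p 0.0469). The histone demethylase Kdm3a had 33.5, 27.5 and 32.9 CPM in KO and 25.7, 28.2, 24.02 and 24.9 CPM in WT.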

How the data were processed

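Per the labels' protocols, cells were sorted into TRIzol LS, the Zymo Directzol kit gave the RNA and Nextera XT, which does not mark strand, the libraries. The authors deposited raw counts by gene symbol, from rsubread by the table's name, and the submitters' processing notes name mm10 and DESeq2. The annotation, and how reads with several matches were counted: not given in the sources used here. Of 27179 entries, 1036 without a symbol (0.376% to 0.424% of each library's counts) were left out.

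Counts were fitted in R 4.3.3 with edgeR 4.0.16 (filterByExpr, TMM, quasi-likelihood F test on genotype, 5 residual degrees of freedom) and p-values were adjusted by Benjamini-Hochberg over 12759 genes. The SE of a log2 fold change is its size divided by the square root of F. Nothing says that libraries came from separate mice. The p-values weigh the genotype difference against the spread between libraries of a genotype, which may be technical. Reads carry no molecular identifiers. DESeq2 1.42.0 and limma 3.58.1 were alternatives, with other scalings, filters, a replicate block and each library left out.

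Exon lengths and 50-base windows come from GENCODE M21, promoters from RefSeq GRCm38.p6. The members and lists were chosen with earlier results of these data known. The rule named every called member, the 15 with the smallest p, the most abundant of each role, and 4 genes of each wider list; Fbp1-like genes and the copies were chosen after values were seen.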

Additional observations from a re-analysis of the deposited data

Results flagged for a closer look

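Among the 4 WT libraries, the gap between the most distant library and its nearest neighbour was compared with the range for each of the 37 members and the role sums, 49 values in all, and 6 exceeded Dixon's critical value, where chance flags about 5%. Fbp1 stood at 224 CPM in WT 4 and at 0 in the other 3, and the summed CPM of the gluconeogenesis and glycogen genes, which include it, at 699.7 in WT 4. Ldhb stood at 0.501 CPM in WT 4, from 16 reads, against at most 1 read in the others. Pdha1 was lowest in WT 4, at 66.5 CPM. Hk2 was lowest in WT 1, at 15.02 CPM. The summed glycolytic enzymes were lowest in WT 2, at 3242 CPM.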

How the results depend on the processing

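Of the 24 members refitted under every alternative, 18 values changed sign, 6 newly passed the threshold and the other 411 did neither; the lowest adjusted p among the sign changes was 0.481. The count of all genes called, 11, was 753 by DESeq2, 397 with no filter, 21 with at least 5 CPM in 3 libraries, 46 by limma voom and 430 with the replicate block. It ranged from 7 to 284 with 1 library left out (7 without WT 1, 217 without KO 3, 284 without WT 4). After seeing the data, WT 4 and KO 3, which stand last in the deposited table, were left out together (590 called) or given a term (19). The members called, 0, were 1 by DESeq2, 1 with no filter, 0 to 1 with 1 library left out (Pygl without WT 4) and 3 with the replicate block (Pygl, Aldoc and Fbp1). Members higher at an unadjusted p below 0.05, 2 in the fit reported, were 1 with library sizes only, 4 with the replicate block and 0 to 4 with 1 library left out: 0 without KO 1, WT 2 or WT 3, 1 without KO 3 or WT 1, and 4 without WT 4. Members lower stayed between 2 and 4. The median log2 fold change of the members was -0.10 with library sizes only, where the median of all genes was -0.05, and lay between -0.08 and -0.04 with 1 library left out. Deviations of same-numbered KO and WT libraries had correlations of -0.01, 0.14 and -0.02, and those of differently numbered ones -0.21 to 0.16. Deviations were taken from means of so few libraries that these values cannot decide whether the numbers pair them. In the replicate block WT 4 has its own level and takes no part.

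The log2 fold changes that changed sign were these, with the range over leaving out 1 library at a time for each gene: -0.22 to 0.26 for Slc2a1, -0.0168 to 0.0268 for Ldha, -0.17 to 0.05 for Gapdh and -0.0831 to 0.00028 for Eno1. Slc2a1 was -0.22 without KO 3 and -0.22 without WT 4 and KO 3. Aldoa was 0.0074 without WT 4 and KO 3. Ldha was -0.0454 with library sizes only, -0.0098 with no filter, -0.0109 without KO 3, -0.0168 without WT 2, -0.0142 without WT 3 and -0.00055 with the term for WT 4 and KO 3. Gapdh was 0.0054 by limma voom, 0.0185 with the replicate block, 0.0483 without KO 2, 0.0280 without WT 4, 0.0298 without WT 4 and KO 3 and 0.0065 with its copies summed. Eno1 was 0.00028 without WT 4 and 0.0037 without WT 4 and KO 3. Fbp1 was -0.0368 without KO 3 and was fitted at 15.03 without WT 4, where the WT libraries are all at 0, so that the value depends on the prior count and is no bound. The share of members with the HIF core was 38.9% in the 250 bases before the start, against 18.5% of all genes. The causes were not tested. Depth limits Slc2a3, Pfkm and Ldhb, with at most 43 reads per library.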
